A study of Mus musculus with 8 samples.

Results

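The genes examined were 10 regulators that act before pachynema, in spermatogonia and at the entry into meiosis: *Gfra1*, *Zbtb16*, *Sall4*, *Nanos3*, *Neurog3*, *Sohlh1*, *Sohlh2*, *Kit*, *Dmrt1* and *Stra8*. They were picked by name for their known roles and not for their values, although earlier results of these data were known by then. Each was matched by its symbol on a standard chromosome of the deposited RNA-seq table. All 10 were found among its 22603 genes, and all 10 were among the 19462 genes tested, which were protein-coding and had a genotype mean over 0.1 TPM (the level of a transcript corrected for its length and for library size). *Neurog3* passed that filter only through the cKO, since it was listed at 0 in both wildtype samples.

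RNA was taken from 500 early-to-mid pachytene spermatocytes per genotype, purified by fluorescence-activated cell sorting, and 2 samples were available for each genotype. The wildtype mice were C57BL/6J males at postnatal day 15 and carried no Cre transgene. The *Setdb1* cKO males were *Setdb1* flox/- and carried the *Ngn3-Cre* transgene, with which the core of the catalytic SET domain of *Setdb1*, an H3K9 methyltransferase, is deleted in male germ cells. The cKO mice also carried an EYFP reporter of Cre at *Gt(ROSA)26Sor* and were of the same or a greater age, so that deletion, transgene, reporter and age cannot be told apart between the groups. The transgene also acts outside the testis, in gut and pancreas. Purity of the sort was checked in wildtype testes and was not complete, so that transcripts of other cells can be part of each level. Nothing in the labels says whether the samples of a genotype came from separate animals, and p-values then measure only the spread between these samples.

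Spermatogonia are the mitotic germ cells of the testis. The undifferentiated ones hold the stem cells, which depend on GDNF signalling through the co-receptor GFRA1, and they pass through a NEUROG3-positive progenitor state before retinoic acid commits them to differentiation. Differentiating spermatogonia depend on the receptor KIT and on the transcription factors SOHLH1 and SOHLH2, and a further pulse of retinoic acid induces STRA8, with which the cells enter meiosis. By pachynema this programme lies in the past of the cell, so the levels below are those of transcripts in, or sorted along with, cells several stages later. In such bulk samples, fewer cells of a type and less RNA per cell cannot be told apart.

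The promoters of 7 of the 10 regulators were matched in RefSeq (build GRCm38.p6; 250 bases before to 50 bases after the annotated start). Those of the genes on which the results turn are shown, with that of *Bhmg1*, the RefSeq symbol of the STRA8 partner gene *Meiosin* (*Gm4969* in the table), because the same transcription factors that make up the list are known to bind short motifs of this kind. Capitals mark the E-box CANNTG, the site of basic helix-loop-helix factors such as SOHLH1, SOHLH2 and NEUROG3, except in *Stra8*, where they mark the retinoic acid receptor half-site AGGTCA.
Stra8 (chr6:34920698-34920997, plus strand): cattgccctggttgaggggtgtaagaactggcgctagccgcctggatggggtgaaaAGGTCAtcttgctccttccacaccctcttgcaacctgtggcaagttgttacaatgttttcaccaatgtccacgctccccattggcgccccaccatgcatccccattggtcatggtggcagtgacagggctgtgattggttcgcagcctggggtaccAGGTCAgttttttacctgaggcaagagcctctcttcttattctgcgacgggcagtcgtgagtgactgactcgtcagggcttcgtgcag
Neurog3 (chr10:62132840-62133139, plus strand): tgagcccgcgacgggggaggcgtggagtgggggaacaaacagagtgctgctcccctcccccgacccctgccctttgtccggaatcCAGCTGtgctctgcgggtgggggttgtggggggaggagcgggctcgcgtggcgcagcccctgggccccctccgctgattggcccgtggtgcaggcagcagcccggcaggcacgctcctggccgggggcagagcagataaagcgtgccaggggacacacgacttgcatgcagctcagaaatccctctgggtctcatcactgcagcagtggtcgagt
Sohlh1 (chr2:25847199-25847498, minus strand): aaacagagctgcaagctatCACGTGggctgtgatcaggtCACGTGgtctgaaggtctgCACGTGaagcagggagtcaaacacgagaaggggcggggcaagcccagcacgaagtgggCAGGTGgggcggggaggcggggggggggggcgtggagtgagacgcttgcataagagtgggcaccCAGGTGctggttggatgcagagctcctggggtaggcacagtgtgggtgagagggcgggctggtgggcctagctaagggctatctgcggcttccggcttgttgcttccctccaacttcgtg
Kit (chr5:75574737-75575036, plus strand): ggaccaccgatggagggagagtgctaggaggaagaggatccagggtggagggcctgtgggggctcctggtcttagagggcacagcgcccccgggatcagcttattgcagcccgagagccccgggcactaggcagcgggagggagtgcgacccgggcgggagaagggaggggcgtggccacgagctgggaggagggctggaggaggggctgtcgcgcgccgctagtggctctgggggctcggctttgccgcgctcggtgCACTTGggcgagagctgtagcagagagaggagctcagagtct
Bhmg1 (chr7:19118295-19118594, minus strand): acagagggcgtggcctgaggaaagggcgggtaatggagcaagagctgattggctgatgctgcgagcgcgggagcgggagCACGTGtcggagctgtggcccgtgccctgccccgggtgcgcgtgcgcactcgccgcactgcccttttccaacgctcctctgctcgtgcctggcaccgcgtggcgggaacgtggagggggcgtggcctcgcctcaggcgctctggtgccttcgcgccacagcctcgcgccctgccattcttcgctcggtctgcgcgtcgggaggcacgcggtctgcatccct
Motifs were searched on both strands. The *Stra8* window held 2 matches to AGGTCA and 0 to CANNTG. At least 2 matches to AGGTCA were present in 1.74% of all 27025 promoters, and at least 1 in 16%. *Sohlh1* held 5 E-boxes, of which 3 had the letters CACGTG, the palindrome known to be bound by MAX and MGA. At least 3 matches to CACGTG were present in 0.0888% of promoters (24 promoters), and at least 5 to CANNTG in 2.1%. The cuts of 2, 3 and 5 matches were set at the numbers seen in *Stra8* and *Sohlh1*. These shares are therefore not those of a cut chosen beforehand. *Sohlh1* also held 1 match to AGGTCA, the last bases of which lie within the second CACGTG. *Neurog3* and *Kit* held 1 E-box each, which is common, since 72.1% of promoters held one. *Bhmg1* held 1 E-box, with the letters CACGTG, and 1 match to CNCCTCAG, the motif known for STRA8 and MEIOSIN, which occurred in 7.97% of promoters. Of the 7 regulators matched, 6 held an E-box, 2 held AGGTCA (*Stra8* and *Sohlh1*), 1 held CACGTG (*Sohlh1*) and 1 held CNCCTCAG (*Sohlh2*). These matches are a description of the letters in the window.

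Before the regulators, the libraries themselves were compared. *Setdb1* had 56.9 and 59.3 TPM in wildtype replicates 1 and 2, and 28.7 and 37.2 TPM in cKO replicates 1 and 2. Both cKO samples were below both wildtype samples, but the log2 difference of -0.81 did not pass the threshold of an adjusted p under 0.2 (limma, Benjamini-Hochberg adjustment over all 19462 genes; adjusted p = 0.269). Without cKO replicate 2 it did (-0.99, adjusted p = 0.101). cKO replicate 1 stood apart from the others: its correlation across genes with the wildtype samples was 0.876 and 0.886, against 0.944 and 0.952 for cKO replicate 2 and 0.974 between the wildtype samples. The summed level of 25 spermatid markers was 802 and 926 TPM in wildtype, 2583 in cKO replicate 1 and 1265 in cKO replicate 2. A few abundant markers made up most of the wildtype sums. The median marker had 0.704 and 0.620 TPM in wildtype, 75.8 in cKO replicate 1 and 4.55 in cKO replicate 2. In 18 of the 25, both cKO samples were above both wildtype samples (26.3% of all genes). Such transcript levels do not by themselves show whether spermatids were present, and the paper reported none in cKO testes. The summed level of 9 Leydig cell markers was 122 and 289 TPM in wildtype, 859 in cKO replicate 1 and 155 in cKO replicate 2. Over the 4 samples, 15 Sertoli markers summed to between 1302 and 1832 TPM. The range was 40.8 to 62.6 TPM for 11 peritubular myoid and endothelial markers and 48.8 to 119 for 11 macrophage and mast cell markers. The 18 markers of pachytene spermatocytes, the labelled cell type, summed to 7213 and 8345 TPM in wildtype. Their sum was 4655 in cKO replicate 1, the lowest, and 7276 in cKO replicate 2. Of the spermatid markers 5 were called higher and 0 lower, of the pachytene markers 3 higher and 2 lower, and of the other 4 lists 0 in either direction by limma, where an unadjusted p under 0.05 was reached by 1 Leydig marker, which was higher. No gene was listed at 0 in 3 or 4 samples, so a marker without signal would be missing rather than listed at 0. Of 12 macrophage and mast cell markers chosen, 11 were present. Because cKO replicate 1 stood apart, each difference below is also given for the cKO samples one by one.

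**Figure D1:**
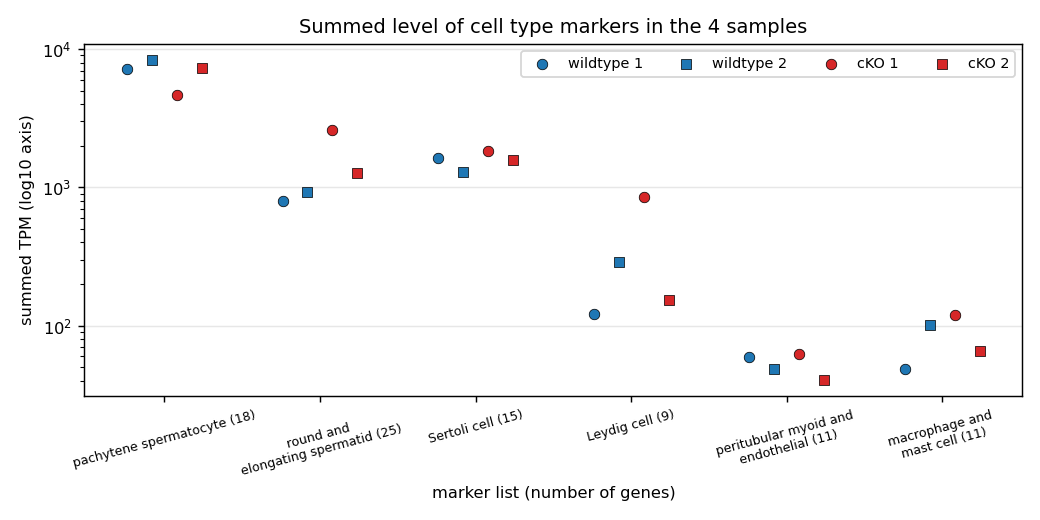
Summed TPM (log10 axis) of the marker genes of 6 cell types in each of the 4 samples, with the number of genes in brackets. Spermatid and Leydig sums were highest in cKO replicate 1, at 2583 and 859 TPM, while Sertoli sums stayed between 1302 and 1832 TPM. The pachytene sum was lowest in cKO replicate 1, at 4655 TPM.

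Among the regulators, the cKO samples differed from wildtype beyond the threshold for *Neurog3* only. Its direction was fixed in advance, since a gene at 0 in both wildtype samples was listed only with both cKO samples above 0. *Neurog3* was called higher, and no other of the 10 was called in either direction. This does not show that the others were unchanged (their intervals are given below). At an unadjusted p under 0.05 the counts by limma were also 1 higher and 0 lower. Over all genes tested, 3.48% were called higher and 1.11% lower (4.6% in all), and 2.32% of autosomal genes, to which all 10 belong, were called higher, so that 1 gene of 10 is the smallest share above 0 that this list can show. The median log2 difference of the 10 was 0.55, being 0.91 for cKO replicate 1 and 0.22 for cKO replicate 2, beside 0.08, 0.13 and 0.02 for all genes tested. cKO replicate 1 was the highest of the 4 samples for 6 of the 10 regulators (37.6% of all genes) and cKO replicate 2 for 0 of them (21.3%). All 10 estimates were above 0, as were those of 56.1% of all genes, but only 7 after scaling to the median autosomal gene and 8 after quantile normalization. In 2 of the 10, *Sohlh1* and *Neurog3*, the cKO samples exceeded both wildtype samples (26.3% of all genes), which the listing fixed for *Neurog3*. In 0 both lay below (18.1%), and in the other 8 the groups overlapped. With 2 samples against 2, an exact two-sided permutation test of a single gene cannot give a p below 0.33.

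**Figure D2:**
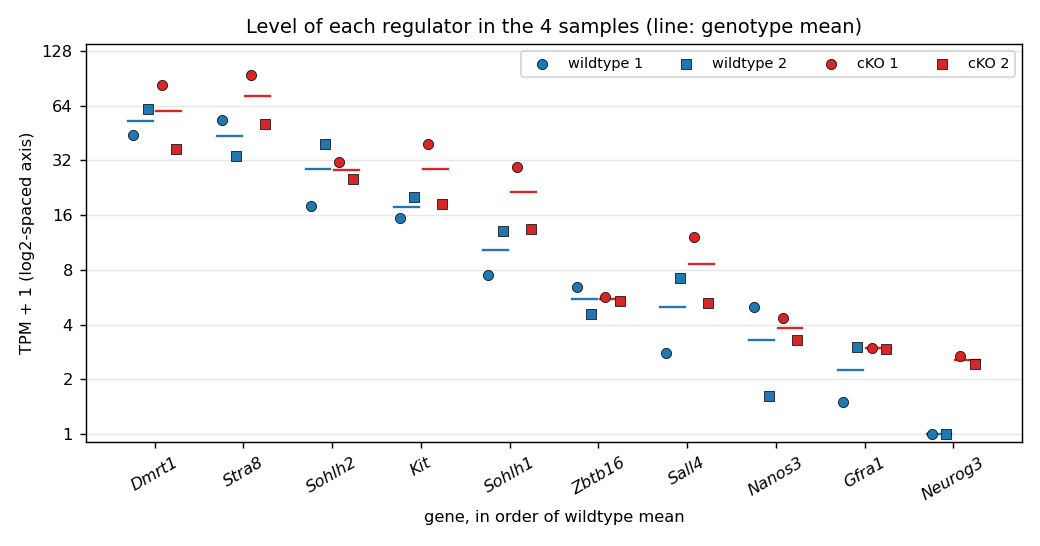
Level of each regulator as TPM + 1 on a log2-spaced axis, in wildtype (blue) and cKO (red) samples, with a line at the mean of each genotype (n = 2). *Neurog3* is the gene with no overlap and a call, from 0 in both wildtype samples to 1.68 and 1.42 TPM in the cKO. Its lack of overlap was fixed by the rule of listing. Red and blue points mix for 8 of the 10 genes.

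In wildtype pachytene cells the order of the mean levels was *Dmrt1*, *Stra8*, *Sohlh2*, *Kit*, *Sohlh1*, *Zbtb16*, *Sall4*, *Nanos3*, *Gfra1* and *Neurog3*, so the genes of meiotic entry and differentiation lay above those of stem cells and progenitors. Neighbours in this order were separated beyond the spread of the samples at 3 places, between *Kit* and *Sohlh1*, between *Sohlh1* and *Zbtb16*, and between *Gfra1* and *Neurog3*. All other neighbours overlapped. In the cKO the order was *Stra8*, *Dmrt1*, *Kit*, *Sohlh2*, *Sohlh1*, *Sall4*, *Zbtb16*, *Nanos3*, *Gfra1* and *Neurog3*. There, neighbours did not overlap at 4 places, from *Sohlh1* to *Sall4*, from *Zbtb16* to *Nanos3*, from *Nanos3* to *Gfra1* and from *Gfra1* to *Neurog3*. Every regulator was far below *Sycp3*, a component of the chromosome axis that spermatocytes carry: *Stra8* had 6.78% and 3.52% of the *Sycp3* level in wildtype, and reached 14.2% and 7.98% in the cKO samples. *Gfra1* had 0.0641% and 0.216% of it in wildtype, and 0.301% and 0.313% in the cKO.

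*Neurog3* (ENSMUSG00000044312; GRCm38 chr10:62133090-62134763, plus strand, 1 exon) encodes the basic helix-loop-helix factor of progenitor spermatogonia. It was listed at 0 TPM in both wildtype samples, at 1.68 TPM in cKO replicate 1 and at 1.42 TPM in cKO replicate 2. The cKO samples were close to each other and both above wildtype, and its level remained the lowest of the 10 in both genotypes. The difference on the log2(TPM + 1) scale was 1.35 (SE 0.29, 95% interval 0.66 to 2.04, adjusted p = 0.131). No fold is given against a level listed at 0, because the read depth is unknown. The call was kept without cKO replicate 1 (1.27, adjusted p = 0.190) and without cKO replicate 2 (1.42, adjusted p = 0.0666). It was lost without wildtype replicate 1 (adjusted p = 0.926) or wildtype replicate 2 (adjusted p = 0.879), settings under which 0 of 19462 genes were called.

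How *Neurog3* came to be called depends on the table. No gene in it is at 0 in 3 or 4 samples, so that a gene at 0 in both wildtype samples could be listed only if it was above 0 in both cKO samples, as all 236 such genes were. Of the 130 among them that passed the filter, 62 were called higher (47.7%). Of the 71 that exceeded 1 TPM in both cKO samples, as *Neurog3* did, 58 were called (81.7%). Its call is therefore shared by most genes that had these zeros and exceeded 1 TPM in both cKO samples, a condition on the outcome. It is not shared by most of the 130 genes with these zeros. The opposite pattern, at 0 in both cKO samples, was shown by 90 genes.

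Where the reads of *Neurog3* came from cannot be told from its level. The cKO mice carried Cre under *Neurog3* control and the wildtype mice did not, so transgene and deletion cannot be told apart. The last part of the single exon, positions 1400 to 1672 of 1674 (chr10:62134489-62134761, 273 bases, 16.3% of the exon), is shared with exons of *2010107G23Rik* on the opposite strand, and the library kit does not mark strand. *2010107G23Rik*, named here after its values were seen, had 13.0 and 8.00 TPM in wildtype, against 39.1 and 38.4 TPM in the cKO samples. It was called higher as well (log2 difference 1.82, adjusted p = 0.103; 1.81 and 0.205 without cKO replicate 1), and its part in the *Neurog3* level was not tested. Within 250000 bases of *Neurog3*, none of the other tested genes passed the threshold, a window also chosen after values were seen. *Hk1*, a hexokinase, had 29.5 and 42.2 TPM in wildtype, against 115 and 64.4 TPM in the cKO samples (1.26, adjusted p = 0.207), and *Tspan15* had 4.92 and 2.44 against 18.1 and 7.13 TPM (1.47, adjusted p = 0.350). *Col13a1* (-0.60, adjusted p = 0.602) and *Hkdc1* (-0.02, adjusted p = 0.991) had estimates below 0.

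The stem cell regulators were low in all samples. *Gfra1* (chr19:58235604-58455909, minus strand), the GDNF co-receptor, had 0.493 and 2.0 TPM in wildtype, against 1.98 and 1.95 TPM in the cKO samples. Wildtype replicate 1 was the low sample, and the other 3 lay together, with wildtype replicate 2 the highest. The log2 difference was 0.48 (95% interval -0.64 to 1.61, adjusted p = 0.740), and it was -0.02 without wildtype replicate 1. Part of its exons, 416 bases, lies opposite *Gm16277*, which was not analysed here.

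*Zbtb16* (chr9:48654297-48836222, minus strand) encodes PLZF, the zinc finger factor that maintains spermatogonial stem cells. Its levels were 5.46 and 3.60 TPM in wildtype, against 4.68 and 4.39 TPM in the cKO samples. Both cKO samples lay between the wildtype samples. Of the 10 regulators it had the estimate nearest to 0 (0.02, 95% interval -1.11 to 1.16, adjusted p = 0.991), an interval that leaves room for more than a doubling or a halving of TPM + 1.

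*Sall4* (chr2:168748332-168767943, minus strand), a zinc finger factor of undifferentiated germ cells, had 1.78 and 6.24 TPM in wildtype, against 11.1 and 4.28 TPM in the cKO samples. cKO replicate 1 was highest and cKO replicate 2 fell within the wildtype range. The wildtype samples alone differed 3.51-fold, a log2 gap larger than that of 94.3% of the genes of like level (within 1.5-fold of its mean). Its log2 difference of 0.83 had the widest interval of the 10 (-0.77 to 2.43, adjusted p = 0.669). *Gm14261*, not analysed here, lies opposite 526 of its exonic bases.

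*Nanos3* (chr8:84173731-84185217, minus strand), an RNA-binding protein that protects germ cells, had 3.96 and 0.614 TPM in wildtype, against 3.35 and 2.27 TPM in the cKO samples. The wildtype samples were the highest and the lowest of the 4, 6.45-fold apart, and enclosed the cKO. The log2 difference was 0.41 (95% interval -1.08 to 1.91, adjusted p = 0.856), and it changed sign to -0.40 without wildtype replicate 2.

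Among the regulators of differentiation, *Sohlh1* had the largest estimate. It encodes a germ cell basic helix-loop-helix factor (chr2:25842995-25847248, minus strand; its promoter, shown above, held 3 CACGTG palindromes). Its levels were 6.45 and 12.1 TPM in wildtype, against 28.5 and 12.5 TPM in the cKO samples. Both cKO samples were above both wildtype samples, although cKO replicate 2 exceeded wildtype replicate 2 by little. The mean was 2.21-fold that of wildtype, with a log2 difference of 1.01 (SE 0.52, 95% interval -0.22 to 2.25, unadjusted p = 0.0934, adjusted p = 0.464). cKO replicate 1 lay 1.58 above the wildtype mean on the log2 scale and cKO replicate 2 0.45 above it.

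*Sohlh2* (chr3:55182028-55209957, plus strand), whose product pairs with SOHLH1, had 17.0 and 38.6 TPM in wildtype, against 30.4 and 24.4 TPM in the cKO samples. Both cKO samples lay between the wildtype samples, unlike those of *Sohlh1*. The 2.27-fold gap between the wildtype samples was larger than that of 99.0% of 2594 genes of like level. The log2 difference was 0.08 (95% interval -0.94 to 1.09, adjusted p = 0.965). No test of the difference between *Sohlh1* and *Sohlh2* was made.

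*Kit* (chr5:75574916-75656722, plus strand) encodes the receptor of stem cell factor and marks differentiating spermatogonia. It had 14.4 and 19.1 TPM in wildtype, against 38.3 and 17.4 TPM in the cKO samples. cKO replicate 1 was highest and cKO replicate 2 fell between the wildtype samples. The ratio of means was 1.67 and the log2 difference 0.62 (95% interval -0.43 to 1.66, adjusted p = 0.615), with 1.16 for cKO replicate 1 and 0.07 for cKO replicate 2. *Kit* is known also from Leydig cells, whose summed markers were highest in cKO replicate 1, at 859 TPM. *Insl3*, a hormone of Leydig cells, had 49.8 and 145 TPM in wildtype, against 557 and 71.2 TPM in the cKO samples. It is 1 of the summed markers and holds much of their sum, so its order of samples is not separate from that of the sum. The part of these cells in the *Kit* level was not tested.

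*Dmrt1* (chr19:25505618-25604329, plus strand) encodes a DM domain factor that keeps spermatogonia from entering meiosis early. It was the most abundant regulator in wildtype, with 43.1 and 60.3 TPM, and had 82.0 and 36.1 TPM in the cKO. The cKO samples were the highest and the lowest of the 4, moving by 0.68 and -0.49 from the wildtype mean on the log2 scale. Its log2 difference was 0.09 (95% interval -0.90 to 1.09, adjusted p = 0.956). *Dmrt1* is also known from Sertoli cells, whose summed markers differed less between the samples, at 1619 and 1302 TPM in wildtype, against 1832 and 1578 TPM in the cKO samples. *Wt1*, a Sertoli cell factor, had 70.5 and 65.8 against 68.6 and 80.5 TPM, and the part of Sertoli cells in the *Dmrt1* level was not tested.

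*Stra8* (chr6:34920163-34939344, plus strand), the retinoic acid-induced factor of meiotic entry, had 52.1 and 32.7 TPM in wildtype, against 92.9 and 49.8 TPM in the cKO samples. cKO replicate 1 was highest, and cKO replicate 2 fell between the wildtype samples, near the upper one. The ratio of means was 1.68 and the log2 difference 0.71 (SE 0.39, 95% interval -0.21 to 1.63, unadjusted p = 0.111, adjusted p = 0.495), with 1.15 for cKO replicate 1 and 0.26 for cKO replicate 2. In rank, *Stra8* exceeded 83.1% and 74.8% of the genes tested in the wildtype samples, 90.3% in cKO replicate 1 and 82.0% in cKO replicate 2.

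**Figure D3:**
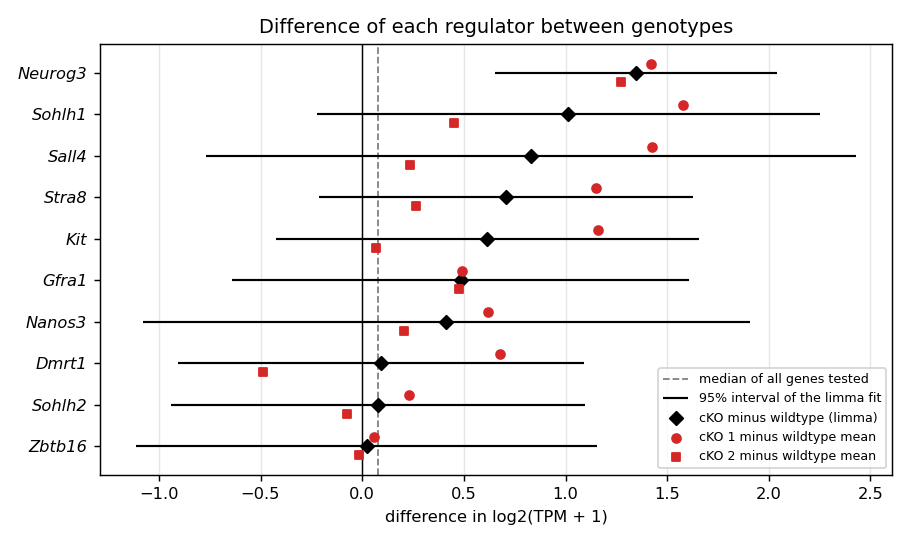
Difference in log2(TPM + 1) between cKO and wildtype for each regulator, as the limma estimate (diamond) with its 95% interval, and for each cKO sample against the wildtype mean (circle, replicate 1; square, replicate 2). The interval excludes 0 for *Neurog3* (0.66 to 2.04), whose direction the listing fixed, and includes 0 for the other 9 genes. cKO replicate 1 lies above replicate 2 for all 10, closely so for *Gfra1* (0.49 and 0.48).

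Leaving out cKO replicate 2 changed how many regulators were called. Without it, 4 of the 10 were higher: *Kit* (1.16, adjusted p = 0.136), *Sohlh1* (1.58, adjusted p = 0.158), *Stra8* (1.15, adjusted p = 0.163) and *Neurog3*. In that setting 13.3% of all genes were called higher and 6.43% lower, and the single cKO sample is assumed to vary as wildtype did. Without cKO replicate 1, only *Neurog3* was called, beside 2.74% of genes higher and 0.699% lower, and the estimates of *Kit*, *Sohlh1* and *Stra8* were 0.07, 0.45 and 0.26. Across the alternatives the adjusted p of *Neurog3* ranged from 0.0666 to 0.926.

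The genes around the regulators in the same pathways were then counted in the same fit. Of 140 listed genes outside the regulators, 131 were tested. Their counts stand beside a background of 3.48% of all genes called higher and 1.11% lower. Among X-linked genes 27.6% were called higher, against 2.32% of autosomal ones. At an unadjusted p under 0.05 by limma, 1788 of the 19462 genes were higher and 855 lower. Among 25 further stem and progenitor genes, 0 were called by limma, and at an unadjusted p under 0.05 there were 0 higher and 1 lower, with a median log2 difference of 0.11. The lower one was *Id4*, an inhibitor of DNA binding that marks stem cells, with 29.6 and 14.7 TPM in wildtype, against 3.21 and 7.58 TPM in the cKO samples. Both cKO samples were below both wildtype samples, but the difference of -1.86 did not pass (adjusted p = 0.216). Among 18 retinoic acid pathway genes, 0 were called and 0 had an unadjusted p under 0.05 in either direction, with a median of -0.05. *Aldh1a2*, an enzyme that makes retinoic acid, had 115 and 126 TPM in wildtype, against 71.9 and 94.1 TPM in the cKO samples (-0.54, adjusted p = 0.415).

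Genes of differentiating spermatogonia had the highest median of the related lists. Of 10 genes, 2 were called higher and 0 lower, with a median of 1.08, being 1.36 for cKO replicate 1 and 0.84 for cKO replicate 2. Both called genes are homeobox genes of the *Rhox* cluster, whose neighbouring copies can share reads, and both are X-linked, a class in which 27.6% of genes were called higher. None of the 8 autosomal genes of the list was called. At an unadjusted p under 0.05 by limma, however, 6 of the 10 were higher and 0 lower, and autosomal genes were among the 6. *Rhox13* had 23.9 and 24.6 TPM in wildtype, against 150 and 85.8 TPM in the cKO samples (2.18, adjusted p = 0.0666). *Rhox10* had 0.225 and 0.385 TPM in wildtype, against 4.48 and 2.26 TPM in the cKO samples (1.70, adjusted p = 0.167; 1.33 and 0.226 without cKO replicate 1), a call that also ended with all biotypes (adjusted p = 0.201), quantile normalization (0.210) and eBayes without trend (0.201). Both cKO samples were above both wildtype samples for 7 of the 10 (26.3% of all genes), while *Kit*, of the same cell stage, overlapped.

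Among 10 partners of meiotic entry, 1 was called higher. *Gm4969* (*Meiosin*), whose product acts with STRA8, had 20.2 and 25.6 TPM in wildtype, against 49.5 and 53.0 TPM in the cKO samples. The cKO samples lay together above wildtype, whereas those of *Stra8* were apart. Its log2 difference was 1.13 (SE 0.28, adjusted p = 0.164), and 1.18 with an adjusted p of 0.214 without cKO replicate 1. The call also ended with scaling to the median autosomal gene (1.01, adjusted p = 0.207), quantile normalization (1.02, 0.224) and eBayes without trend (0.259). Besides, 13 repressors of meiotic entry were counted, the polycomb complex PRC1.6 and its associates, which hold meiotic genes silent in other cells. At an unadjusted p under 0.05 by limma, 0 of the 13 were higher and 5 lower. Of the 13, 0 were called higher and 2 lower (1.11% of all genes), with a median of -0.56. *Tfdp1*, the partner of E2F factors, had 142 and 111 TPM in wildtype, against 53.3 and 61.6 TPM in the cKO samples (-1.12, adjusted p = 0.143; -1.02 and 0.223 without cKO replicate 1). *Rnf2*, a ubiquitin ligase of polycomb complexes, had 108 and 126 against 66.2 and 54.4 TPM (-0.95, adjusted p = 0.183). Both calls ended with eBayes without trend (adjusted p = 0.271 for *Tfdp1* and 0.327 for *Rnf2*), and that of *Rnf2* with all biotypes (0.201).

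Of 15 early meiotic genes that depend on STRA8, counted as 16 records because *Spata22* has 2 Ensembl genes on chromosome 11, 0 were called higher and 2 lower, with a median of -0.46. *Sycp2*, an axis component, had 299 and 322 TPM in wildtype, against 147 and 173 TPM in the cKO samples (-0.96, adjusted p = 0.166; -0.84 and 0.243 without cKO replicate 1, and 0.314 with eBayes without trend). *Spata22*, which acts in meiotic recombination, had 68.1 and 79.0 TPM in wildtype, against 21.3 and 27.1 TPM in the cKO samples in its more abundant record, ENSMUSG00000112920 (-1.57, adjusted p = 0.0825). The other record, at 1.09 to 3.40 TPM, was not called (-0.46, adjusted p = 0.765), and how reads divide between the records is uncertain. The estimates of *Stra8*, which was not called, and *Gm4969* were thus above 0 and those of *Sycp2* and *Spata22* below it. The list was mixed, with 4 of its 16 records above 0. Both cKO samples were below both wildtype samples for 10 records (18.1% of all genes) and above them for 2 (26.3%). At an unadjusted p under 0.05 by limma, 6 of the 16 records were lower and 0 higher. Among 20 ligands and transducers of GFRA1-RET and KIT signalling, 1 was called higher. It was *Gfra2*, the neurturin co-receptor and a paralogue of *Gfra1*, with 0.403 and 0.740 TPM in wildtype, against 4.18 and 4.05 TPM in the cKO samples (1.71, adjusted p = 0.160; 1.69 and 0.221 without cKO replicate 1, and 1.40 and 0.256 with quantile normalization).

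Among 24 paralogues of the regulators, of which 4 are X-linked, 3 were called higher and 1 lower. Besides *Gfra2*, the higher ones were *Dmrtc1c1* and *Dmrtc1c2*, both X-linked, where 27.6% of genes were called higher. *Dmrtc1c1* had 3.18 and 2.97 TPM in wildtype, against 41.0 and 17.0 TPM in the cKO samples (2.75, adjusted p = 0.0980). *Dmrtc1c2* had 5.63 and 12.4 against 85.4 and 46.3 TPM (2.76, adjusted p = 0.0738; 2.32 and 0.206 without cKO replicate 1). They are near-identical copies that may share reads, so how the reads divide between them is uncertain. *Dmrtc2* had 204 and 273 TPM in wildtype, against 76.7 and 91.2 TPM in the cKO samples (-1.49, adjusted p = 0.0825, and 0.201 with eBayes without trend). It is autosomal, as is *Dmrt1*, whose cKO values straddled wildtype. Without either wildtype sample none of the related genes was called.

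**Figure D4:**
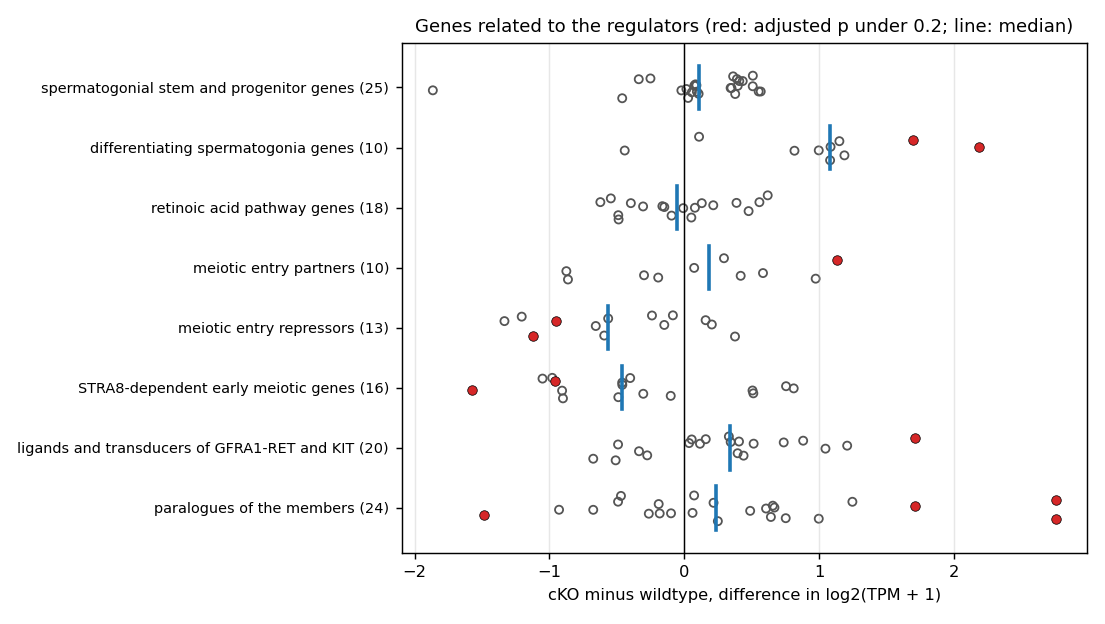
Difference in log2(TPM + 1) between cKO and wildtype for each tested gene of the 8 related lists (number of gene records in brackets; a gene may be in more than 1 list), with red points for genes past an adjusted p under 0.2 and a blue line at the median of the list. Medians run from -0.56 for meiotic entry repressors to 1.08 for differentiating spermatogonia genes, beside 0.08 for all genes tested.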

How the data were processed

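Only the RNA-seq table was used, which covers 2 wildtype and 2 *Setdb1* cKO samples; the ChIP-seq samples were not analysed here. Libraries were made by Smart-seq2, which does not mark strand. The authors quantified transcripts with kallisto against GRCm38 and normalized with sleuth. The deposited values are TPM, treated as a normalized signal because the columns sum to between 942186 and 1109725 rather than to a common total. Depth per sample is unknown, so counting error is not given. Columns of the authors' own test were not used. Of 22603 genes, the 19462 that were protein-coding and exceeded a mean of 0.1 TPM in either genotype were kept, and log2(TPM + 1) was compared with limma 3.58.1 in R 4.3.3 (eBayes with trend, no covariate, Benjamini-Hochberg adjustment). The call was an adjusted p under 0.2, the threshold of the study methods. Differences are on the log2(TPM + 1) scale, which understates changes of low genes. The fit was tested on simulated data.

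The regulators and gene lists were chosen with earlier results of these data known. All 10 regulators, *Setdb1*, and of each related list up to 5 called genes by smallest p, or else at most 2, were eligible to be named. Marker lists are given by their sums and a defining gene, or by genes that hold much of the sum. The spermatid and pachytene markers are also given by their median. Replicate numbers did not pair the samples (correlation of deviations 0.03, 2 pairs). Alternatives were 2 pseudocounts, 2 filters, all biotypes, 2 scalings, eBayes without trend, a replicate block and each sample left out. Promoters are from RefSeq (GRCm38.p6), gene positions from the GRCm38 annotation. Plots were made in Python 3.11.15 (matplotlib 3.10.9).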

Additional observations from a re-analysis of the deposited data

How the results depend on the processing

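Of 13 alternatives, the call of *Neurog3* held in 10, and it was lost with a filter at 1 TPM (0 regulators called; adjusted p = 0.208) and without either wildtype sample. With the replicate block it was kept, the count of regulators called stayed at 1 higher, 11 related genes were lower, and 1409 genes were called in place of 895. Scaling moved the median log2 difference of all genes from 0.08 to -0.01 (median autosomal gene) and -0.11 (quantile). Under the former, *Dmrt1* was at -0.029, *Sohlh2* at -0.043 and *Zbtb16* at -0.081; under the latter *Sohlh2* was at -0.062 and *Zbtb16* at -0.39. Leaving out 1 sample gave ranges of -0.49 to 0.68 for *Dmrt1*, -0.49 to 0.64 for *Sohlh2*, -0.22 to 0.27 for *Zbtb16*, -0.40 to 1.22 for *Nanos3*, -0.019 to 0.99 for *Gfra1* and -0.99 to -0.63 for *Setdb1*, with 0 to 4 regulators called higher and 0 lower. Related genes numbered 6 higher and 5 lower; 8 were lower with a pseudocount of 0.1, 8 with the 1 TPM filter, 8 with the autosomal scaling and 1 with eBayes without trend, 3 were higher after quantile scaling, and leaving out 1 sample gave 0 to 12 higher and 0 to 14 lower. eBayes without trend called 448 genes in all, and leaving out 1 sample called 0 to 3837. The cause of these changes was not tested, beyond the fewer samples in the latter. Unknown depth limits what can be said of the low genes *Gfra1*, *Nanos3* and *Neurog3*.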
